A study of Mus musculus with 16 samples.

Results

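The proteasome genes examined here were all rows of the expression table whose symbol joins Psma, Psmb, Psmc, Psmd, Psme, Psmf or Psmg to a number, leaving out the immunoproteasome subunits Psmb8, Psmb9 and Psmb10. This rule found 45 genes among the 31053 in the table, and used no measured value. They were followed in C2C12, an immortalized mouse myoblast line, across 4 groups of 4 samples: WT myoblasts, WT myotubes, Fam134bKO myoblasts and Fam134bKO myotubes. Myotubes are the multinucleated muscle fibers that C2C12 myoblasts form when they fuse, and all groups were kept in DMEM with 10% FBS, in which the cells differentiated spontaneously. Fam134b (Retreg1) encodes a receptor that delivers endoplasmic reticulum to the lysosome. The gene was targeted with guide RNAs on a lentiviral Cas9 vector, followed by antibiotic selection. Whether the Fam134bKO line is 1 clone is not stated, and WT and Fam134bKO thus compare 1 edited line with unedited cells. The samples were labeled as biological replicates of each group, without saying whether they came from separate cultures or differentiations.

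The proteasome is the protease complex that degrades most ubiquitin-tagged proteins in the cytosol and nucleus. Its core particle, the 20S, is a barrel of outer rings of alpha subunits, which gate the entry, around inner rings of beta subunits, of which Psmb5, Psmb6 and Psmb7 carry the proteolytic sites. The 19S cap binds ubiquitin chains, removes them and unfolds the substrate with a ring of ATPases, while alternative activators (Psme1 to Psme4) open the barrel without ubiquitin. Dedicated chaperones assemble the parts and do not belong to the finished complex. In muscle, the ubiquitin-proteasome system is known for the breakdown of myofibrillar proteins during atrophy, and it also removes regulators of the cell cycle and of differentiation. The transcription factor Nfe2l1 (NRF1) is known to raise proteasome genes together when proteasome activity is short, by binding antioxidant response elements with the core TGACNNNGC.

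The 250 bases upstream of the RefSeq start (GRCm38.p6) were searched on both strands for TGACNNNGC and for CCAAT, the site of the factor NF-Y. TGACNNNGC was present in 5 of the 37 members with a promoter in the table (13.5%, against 10.2% of all 32851 promoters), namely Psmb5, Psmb6, Psmc6, Psmd9 and Psmd12. CCAAT was found in 13 members (35.1%, against 33.8%). The units differ, since a member was counted if any of its promoters held the motif, while the share of all is per promoter. Psma6, Psmc2 and Psme2 had more than 1 promoter. The promoters of Psma5, Psmb4, Psmb5 and Psmc4 are shown because these genes are among the 6 that were called lower in Fam134bKO myotubes against both Fam134bKO myoblasts and WT myotubes. Those of Psmc1 and Psmc5, also among these 6, are not printed because their windows reach further into the GENCODE transcript. The windows of Psmb4, Psmb5 and Psmc4 reach into it as well, but less far. Psmc1 held CCAAT, and Psmc5 held neither motif. The promoter of Psmb6 is shown because it is a catalytic subunit with the element. These promoters were chosen after the values were seen. Capitals mark TGACNNNGC, which lies 47 to 39 bases before the start in Psmb5 and 9 to 1 bases before it in Psmb6. Psma5 (chr3:108256676-108256925, plus strand), Psmb4 (chr3:94886959-94887208, minus strand) and Psmc4 (chr7:28050093-28050342, minus strand) held neither motif in this window. Psmb5 lies at chr14:54617996-54618245 on the minus strand and Psmb6 at chr11:70525107-70525356 on the plus strand.
Psma5: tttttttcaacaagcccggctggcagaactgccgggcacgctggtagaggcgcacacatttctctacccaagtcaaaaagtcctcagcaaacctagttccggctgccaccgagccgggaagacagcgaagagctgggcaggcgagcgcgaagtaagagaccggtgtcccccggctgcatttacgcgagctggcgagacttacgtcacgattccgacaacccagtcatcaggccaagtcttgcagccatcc
Psmb4: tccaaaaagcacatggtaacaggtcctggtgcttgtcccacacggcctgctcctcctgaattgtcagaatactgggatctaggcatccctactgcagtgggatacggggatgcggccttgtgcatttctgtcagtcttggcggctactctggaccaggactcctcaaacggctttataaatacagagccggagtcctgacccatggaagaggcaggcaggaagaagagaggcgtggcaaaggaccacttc
Psmb5: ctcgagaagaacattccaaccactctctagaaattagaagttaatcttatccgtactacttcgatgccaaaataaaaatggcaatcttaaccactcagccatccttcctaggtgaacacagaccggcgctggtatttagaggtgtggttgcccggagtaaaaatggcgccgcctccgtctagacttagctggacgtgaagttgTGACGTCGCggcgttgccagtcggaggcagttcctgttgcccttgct
Psmb6: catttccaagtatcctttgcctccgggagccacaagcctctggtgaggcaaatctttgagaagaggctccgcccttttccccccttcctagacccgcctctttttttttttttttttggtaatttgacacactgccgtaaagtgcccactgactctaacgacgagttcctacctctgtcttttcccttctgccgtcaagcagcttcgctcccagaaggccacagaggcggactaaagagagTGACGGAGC
Psmc4: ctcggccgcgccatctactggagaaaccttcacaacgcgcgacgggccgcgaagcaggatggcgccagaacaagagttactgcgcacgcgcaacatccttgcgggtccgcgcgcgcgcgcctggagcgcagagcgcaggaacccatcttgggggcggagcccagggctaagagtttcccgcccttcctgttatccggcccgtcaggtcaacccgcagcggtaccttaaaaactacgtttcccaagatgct

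Values are normalized counts as deposited, taken out of log2(normalized count + 1). Between 1484750 and 3287461 reads were counted on genes per sample, and Fam134bKO myotubes replicates 4 and 2 were the shallowest (1484750 and 1790524 reads). A level of 3 reads, taken as the smallest detected, corresponds to a normalized count of 2.49 to 5.99, and this floor covers counting error only. Fam134b itself was lower in Fam134bKO than in WT cells, with a log2 difference of -2.86 (SE 0.26, adjusted p = 2.95e-08) in myoblasts and -2.46 (SE 0.26, adjusted p = 9.85e-07) in myotubes (limma, Benjamini-Hochberg adjustment). All 11 tested myotube markers were higher in myotubes than in myoblasts of both genotypes. Myog, the muscle differentiation factor, had 0 reads in the 4 Fam134bKO myoblast samples, where 10 of these 11 markers were lower than in WT myoblasts. Of 5 tested myoblast and reserve cell markers, 2 were lower and 0 higher in Fam134bKO than in WT myoblasts, with log2 differences from -4.81 to 0.68. In myotubes 2 of the 5 were lower and 0 higher, with log2 differences from -1.43 to 0.47. The summed normalized counts of macrophage markers did not exceed 26.1 in any sample, and those of endothelial markers stayed at or under 1.94. Those of 4 adipocyte markers, of which 1 was tested, ranged from 34.0 in Fam134bKO myotubes to 78.4 in WT myoblasts. Within their groups, Fam134bKO myoblasts replicate 2 and WT myotubes replicate 2 held the highest value in 24 of the 43 tested members each, and Fam134bKO myoblasts replicate 3 the lowest in 21.

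Of the 45 members, 43 passed the filter on low values (4 or more samples reaching a normalized count of 10). The other two are tissue-restricted: Psma8, of the testis, had 0 reads in all 16 samples, and Psmb11, of the thymus, had at most 1 read in any sample. A gene was called at a limma Benjamini-Hochberg adjusted p under 0.05, over all 10767 genes tested. Because the comparisons share groups of samples, their counts are given side by side and are not independent. In bulk samples, fewer cells of a type and less RNA per cell cannot be told apart. Reads of near-identical gene copies are also a limit. In 31 of the 43 tested members at most 10% of the 31-base stretches in the last 500 transcript bases occur in other genes (GENCODE M21), while the share was 77.2% in Psma5, 73.6% in Psmb3, 68.7% in Psme2, 63.4% in Psmb5, 58.5% in Psmd1, 57.7% in Psmd2 and 35.5% in Psmc1. Values of these genes are uncertain to that extent.

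On differentiation of WT cells, few proteasome transcripts passed the test. Those that did were lower, in a share close to the share of all genes called lower. In WT myotubes against WT myoblasts, 5 of 43 members were called lower (11.6%, against 9.16% of all genes tested) and 0 were called higher (13.8% of all genes), with 13 of 43 members at an unadjusted limma p under 0.05 in either direction, as were 35.4% of all genes. The log2 difference was negative in 38 of 43 members, with a median of -0.25, against -0.01 over all genes. The 5 called were the ubiquitin receptor Psmd4, the inhibitor Psmf1, the alpha subunits Psma3 and Psma7, and Psmd12. The count moved with single libraries: it was 1 without WT myoblasts replicate 3, 2 without WT myoblasts replicate 4 or WT myotubes replicate 1 or 4, 3 without WT myotubes replicate 3, and 10 without WT myotubes replicate 2. The matching shares of all genes are not given here. Over all called genes, 60.1% were higher in WT myotubes with the deposited scaling and 49.7% after quantile normalization, where 4 of 43 members and 13.3% of all genes were called lower and the median of all genes was -0.09.

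On differentiation of Fam134bKO cells, most of the members that passed the test were lower, and they came mainly from the core and from the ATPases of the cap. Against Fam134bKO myoblasts, 13 of 43 members were called lower in Fam134bKO myotubes (30.2%, against 16.1% of all genes tested) and 1, Psmd3, was called higher (2.33%, against 17.3%). The median log2 difference was -0.27, against -0.02 over all genes, and 34 members had a negative one. At an unadjusted limma p under 0.05 in either direction were 17 of 43 members and 43.7% of all genes. The 13 were Psma1, Psma5, Psmb2, Psmb4, Psmb5, Psmb6, Psmc1, Psmc4, Psmc5, Psmd9, Psmd12, Psme1 and Psmg1. Without Fam134bKO myoblasts replicate 1 or 4 the counts lower were 5 and 6. The share of all genes called without these samples is not given here, so the excess over all genes is not shown to hold there. The count higher was 0 without Fam134bKO myoblasts replicate 1, 3 or 4 or Fam134bKO myotubes replicate 1, and 3 without Fam134bKO myoblasts replicate 2. Among the 31 members with little shared sequence, 7 were called lower (16.1% of all genes tested).

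Between genotypes, few members passed the test in myoblasts. In myotubes the share called lower was close to the share of all genes called lower. The members called lower there belonged to the core and to the ATPases of the cap. In Fam134bKO against WT myoblasts, 3 of 43 members were called lower (6.98%, against 8.5% of all genes) and 0 higher (7.26% of all genes). At an unadjusted limma p under 0.05 were 4 members, against 27.4% of all genes. Those called were Psma3, Psmd8 and Psmc4, and the median log2 difference was -0.12 (-0.01 over all genes). In Fam134bKO against WT myotubes, 7 of 43 were called lower (16.3%, against 13.7%) and 1, Psmf1, was called higher (2.33%, against 9.74%), with a median of -0.21 (-0.07 over all genes). In either direction, 18 of 43 members had an unadjusted limma p under 0.05, as did 35.7% of all genes. Those lower were Psma5, Psmb4, Psmb5, Psmb7, Psmc1, Psmc4 and Psmc5. The count higher was 2 without WT myotubes replicate 1 and 0 without Fam134bKO myotubes replicate 4. Of the members, 6 were called lower in Fam134bKO myotubes against both Fam134bKO myoblasts and WT myotubes, comparisons that share the 4 Fam134bKO myotube samples: Psma5, Psmb4, Psmb5, Psmc1, Psmc4 and Psmc5.

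**Figure D1:**
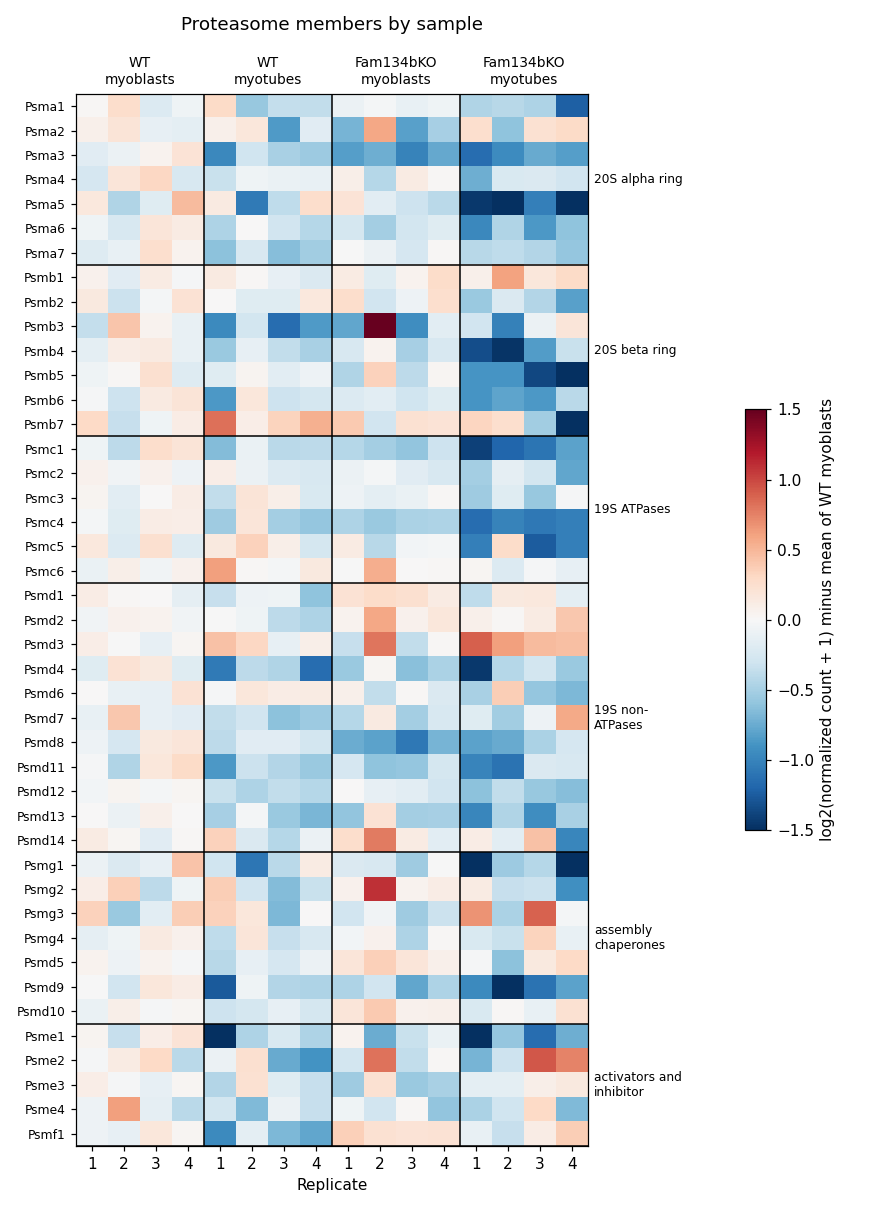
Heat map of the tested members (rows, grouped by class) in the 16 samples (columns, by group and replicate). Color gives log2(normalized count + 1) minus the mean of WT myoblasts and saturates at the ends of its scale, and the 4 columns of Fam134bKO myotubes hold the 4 lowest values of Psmb5.

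**Figure D2:**
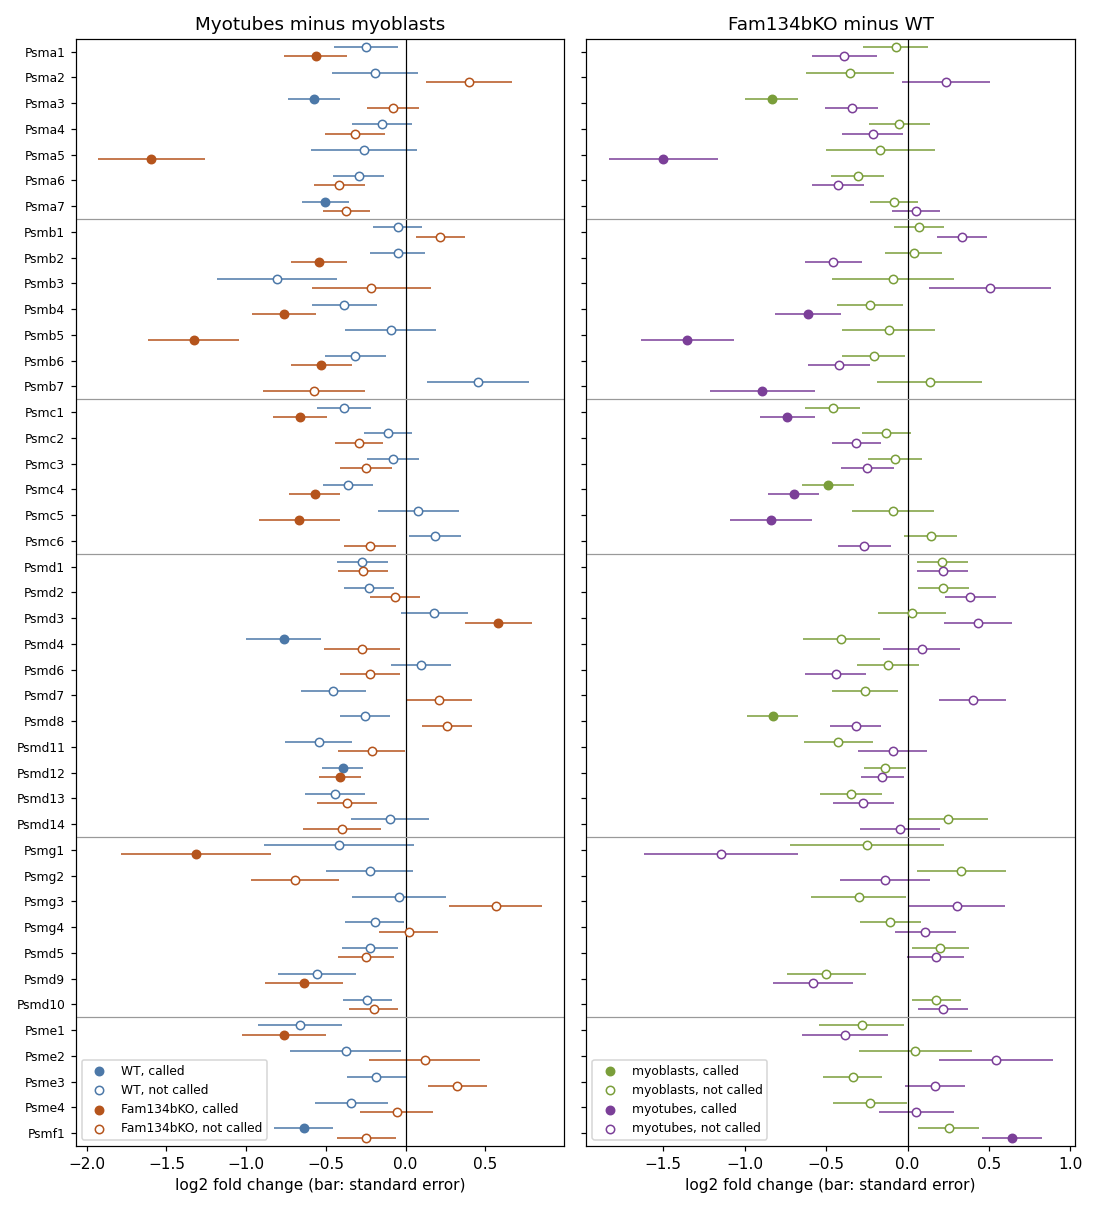
Log2 differences of each member (points) with standard errors (bars), for myotubes minus myoblasts in each genotype (left) and Fam134bKO minus WT at each stage (right), where filled points were called by limma at an adjusted p under 0.05. The points farthest to the left are Psma5 in Fam134bKO cells (-1.59) and in Fam134bKO against WT myotubes (-1.501).

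The alpha subunits form the gated outer rings of the core. Psma5 (chr3:108256926-108279974) had the most negative log2 difference of all members in both comparisons that involve Fam134bKO myotubes. Its normalized counts were 161, 105, 127 and 199.6 in WT myoblasts, 158, 68.4, 111 and 172 in WT myotubes, 166, 129, 115 and 108 in Fam134bKO myoblasts and 52.3, 45.2, 70.2 and 17.98 in Fam134bKO myotubes. All 4 Fam134bKO myotube samples lay under all Fam134bKO myoblast samples, while the highest of them slightly exceeded the lowest WT myotube sample, and they rest on 9 to 78 reads each. Psma5 fell to 0.331 times its level on differentiation of Fam134bKO cells (log2 difference -1.59, SE 0.33, adjusted p = 0.000982) and was 0.353 times the WT level in myotubes (log2 difference -1.501, SE 0.33, adjusted p = 0.00253). On differentiation of WT cells its log2 difference was -0.26 (SE 0.33, adjusted p = 0.617), and it was not called.

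Psma3 (chr12:70974621-70996347) followed another pattern, being high in WT myoblasts alone. Its normalized counts were 299, 316, 350.3 and 389 in WT myoblasts, 172, 273, 241 and 231 in WT myotubes, 189, 202, 168 and 197 in Fam134bKO myoblasts and 152, 175, 199.7 and 189.8 in Fam134bKO myotubes. No WT myoblast sample overlapped with WT myotubes or with Fam134bKO myoblasts, whereas the Fam134bKO groups overlapped with each other. Psma3 fell in WT myotubes (log2 difference -0.57, SE 0.16, adjusted p = 0.0145) and was lower in Fam134bKO than in WT myoblasts (log2 difference -0.83, SE 0.16, adjusted p = 0.000793). The difference between the Fam134bKO stages was -0.08 (SE 0.16, adjusted p = 0.736).

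Of the other alpha subunits, Psma7 fell in WT myotubes (log2 difference -0.505, SE 0.15, adjusted p = 0.0181) and Psma1 in Fam134bKO myotubes (log2 difference -0.57, SE 0.20, adjusted p = 0.0333), without overlap between the groups in either case. Psma7 in Fam134bKO cells had a similar value that missed the threshold, -0.37 (SE 0.15, adjusted p = 0.0577). Psma2, Psma4 and Psma6 were called in none of the 4 comparisons, with log2 differences between -0.43 and 0.40. All 7 tested alpha subunits had a negative log2 difference in WT myotubes against WT myoblasts and in Fam134bKO against WT myoblasts. Leaving out 1 library ended the WT stage call of Psma3 (WT myoblasts replicate 4 or WT myotubes replicate 1, highest adjusted p of all alternatives 0.0641) and of Psma7 (WT myoblasts replicate 3 or 4 or WT myotubes replicate 3, 0.0804). It also ended that of Psma1 in Fam134bKO cells (Fam134bKO myoblasts replicate 1, 2, 3 or 4 or Fam134bKO myotubes replicate 4, 0.173), and the calls of Psma5 were lost in none of 27 alternatives.

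In the beta ring, 4 of 7 tested subunits were called lower in Fam134bKO myotubes than in Fam134bKO myoblasts, and 3 of 7 lower than in WT myotubes (16.1% and 13.7% of all genes tested). In WT myotubes against WT myoblasts and in Fam134bKO against WT myoblasts limma called 0 of 7, with 1 and 0 at an unadjusted p under 0.05. Psmb5 (chr14:54614119-54618022), whose promoter is printed above, carries the chymotrypsin-like activity of the core and is the main target of proteasome inhibitors used in the clinic. Its normalized counts were 148, 156, 183 and 135 in WT myoblasts, 136, 159, 138 and 147 in WT myotubes, 113, 198, 118 and 158 in Fam134bKO myoblasts and 83.3, 83.2, 59.4 and 23.98 in Fam134bKO myotubes. All Fam134bKO myotube samples lay under every sample of the other 3 groups, the lowest on 12 reads. Psmb5 was 0.398 times the level of Fam134bKO myoblasts (log2 difference -1.33, SE 0.29, adjusted p = 0.00122) and 0.392 times that of WT myotubes (log2 difference -1.35, SE 0.29, adjusted p = 0.00165). In WT cells the stages differed by -0.09 (SE 0.29, adjusted p = 0.856), less than the spread between replicates.

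Psmb6 carries the caspase-like activity. Its normalized counts were 2733, 2231, 3030.2 and 3173 in WT myoblasts, 1526, 3115, 2226 and 2310.4 in WT myotubes, 2403, 2489, 2258 and 2441 in Fam134bKO myoblasts and 1501, 1596, 1518 and 2094 in Fam134bKO myotubes. The Fam134bKO stages did not overlap, and Psmb6 fell on differentiation of these cells (log2 difference -0.53, SE 0.19, adjusted p = 0.039), while WT myotubes replicate 1 lay as low as the Fam134bKO myotubes. Against WT myotubes the difference was -0.42 (SE 0.19, adjusted p = 0.121). Psmb7, with the trypsin-like activity, had normalized counts of 414, 265, 324 and 365 in WT myoblasts, 602, 363, 427 and 490.4 in WT myotubes, 445, 276, 395 and 390.4 in Fam134bKO myoblasts and 424, 401, 235 and 95.9 in Fam134bKO myotubes. The Fam134bKO myotube samples spread over a wide range, from under every other sample to within the other groups. Psmb7 was called lower than in WT myotubes (log2 difference -0.89, SE 0.32, adjusted p = 0.0483), with overlapping groups, and this call was lost in 17 of 27 alternatives (highest adjusted p 0.179). Among the omissions of 1 library, it was kept only without WT myotubes replicate 2, Fam134bKO myoblasts replicate 2 or Fam134bKO myotubes replicate 1 or 2. Together the 3 catalytic subunits summed to 3290 ± 453 normalized counts in WT myoblasts, 2910.0 ± 567 in WT myotubes, 2921 ± 101 in Fam134bKO myoblasts and 2029 ± 168 in Fam134bKO myotubes (SD, n = 4 each).

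The non-catalytic Psmb4 fell in Fam134bKO myotubes (log2 difference -0.76, SE 0.20, adjusted p = 0.00618) and was lower than in WT myotubes (log2 difference -0.61, SE 0.20, adjusted p = 0.0328), with 1 Fam134bKO myotube sample inside the range of the others in both. Psmb2 fell on differentiation of Fam134bKO cells (log2 difference -0.54, SE 0.17, adjusted p = 0.0205), again with overlap. Psmb1 and Psmb3 were called in no comparison, and both had a positive log2 difference in Fam134bKO against WT myotubes (0.34 and 0.51). Psmb3 had 1 sample far above the rest, Fam134bKO myoblasts replicate 2 at 2626 against 481 to 823 in the other 3, so its standard error of 0.37 was the largest of the ring. Leaving out 1 library ended the call of Psmb6 (Fam134bKO myoblasts replicate 1, 2, 3 or 4 or Fam134bKO myotubes replicate 1, 2 or 3, highest adjusted p 0.0927) and of Psmb2 (Fam134bKO myoblasts replicate 1 or 4 or Fam134bKO myotubes replicate 4, 0.075). It ended that of Psmb4 between the genotypes as well (WT myotubes replicate 2, 3 or 4 or Fam134bKO myotubes replicate 1 or 2, 0.109), whereas both calls of Psmb5 and the Fam134bKO stage call of Psmb4 were lost in none of 27 alternatives.

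**Figure D3:**
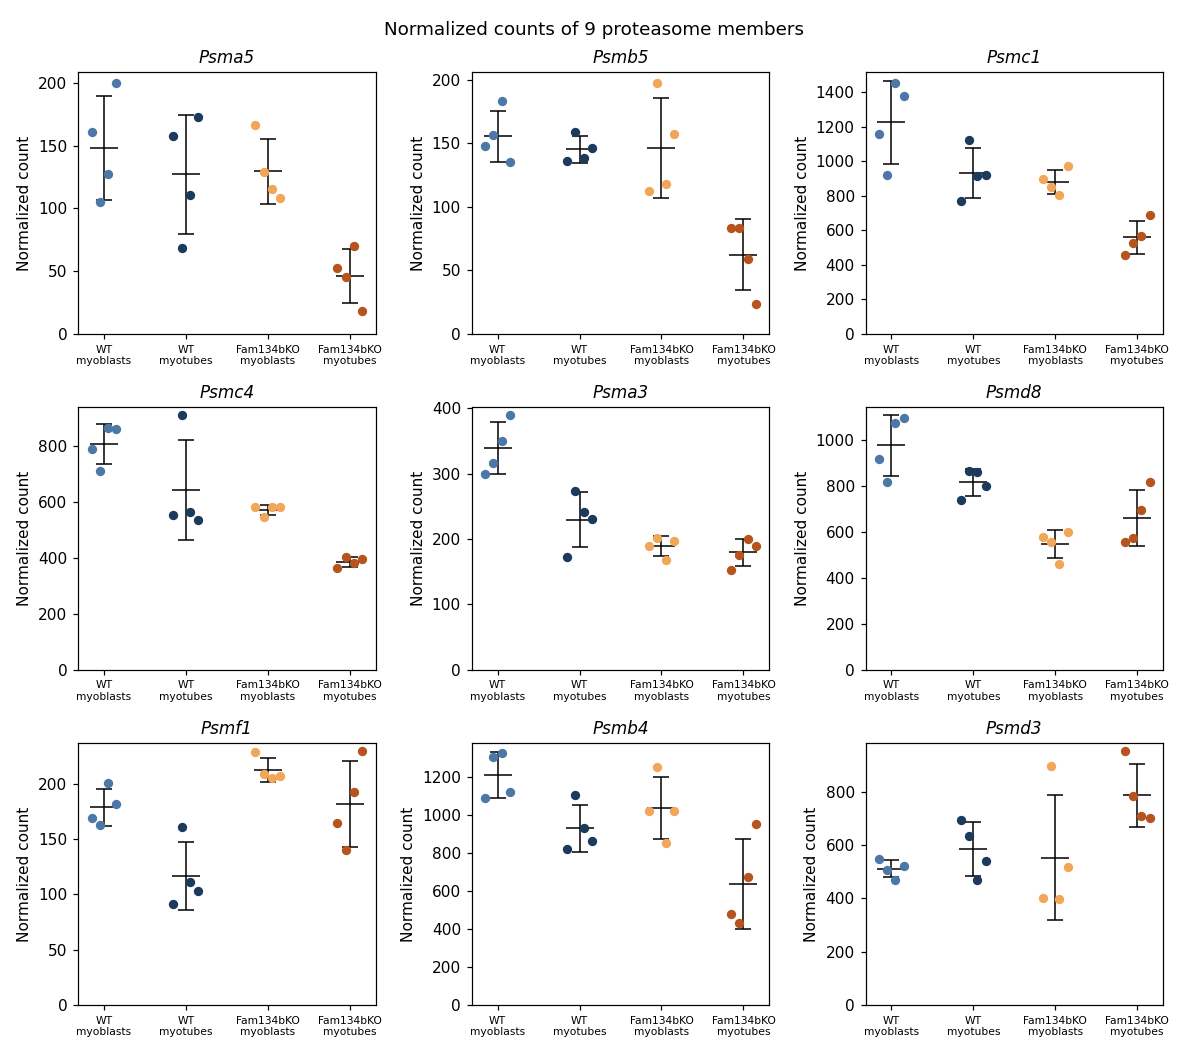
Normalized counts of 9 members in each sample (points), with the group mean and SD (bars, n = 4). Psmb5 and Psmc4 in Fam134bKO myotubes lie under every sample of the other groups, and Psma3 and Psmd8 in WT myoblasts lie above every Fam134bKO myoblast sample.

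The 6 ATPases of the 19S base form the ring that unfolds substrates. In Fam134bKO myotubes all 6 had negative log2 differences against both Fam134bKO myoblasts and WT myotubes, and the same 3 of 6 were called lower in each (16.1% and 13.7% of all genes tested), Psmc1, Psmc4 and Psmc5. In WT myotubes against WT myoblasts limma called 0 of 6, with 2 at an unadjusted p under 0.05. Psmc4 (chr7:28041707-28050101) was the member with the smallest SD of log2 values in Fam134bKO myotubes (0.063). Its normalized counts were 788, 709.8, 864 and 858 in WT myoblasts, 553, 909, 564 and 536 in WT myotubes, 582, 545, 579.5 and 581 in Fam134bKO myoblasts and 363, 401, 381 and 394 in Fam134bKO myotubes. Fam134bKO myotubes were lowest in every sample, Fam134bKO myoblasts lay under all WT myoblasts, and WT myotubes replicate 2 lay above all WT myoblasts while the other 3 WT myotube samples lay below them. The log2 difference was -0.57 (SE 0.16, adjusted p = 0.00836) on differentiation of Fam134bKO cells, -0.70 (SE 0.16, adjusted p = 0.00282) between the genotypes in myotubes and -0.49 (SE 0.16, adjusted p = 0.038) in myoblasts, each called lower by limma.

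Psmc1 (chr12:100110154-100123405) had normalized counts of 1158, 918, 1452 and 1378 in WT myoblasts, 768, 1124, 915 and 921 in WT myotubes, 896, 850.0, 802 and 970.2 in Fam134bKO myoblasts and 457, 528, 565 and 689 in Fam134bKO myotubes. The 4 Fam134bKO myotube samples again lay under all other samples. Psmc1 fell on differentiation of Fam134bKO cells (log2 difference -0.66, SE 0.17, adjusted p = 0.00519) and was lower than in WT myotubes (log2 difference -0.74, SE 0.17, adjusted p = 0.00356). Psmc5 was at 219.6, 169.7, 231 and 172 in WT myoblasts, 217, 250.1, 209 and 163 in WT myotubes, 214, 147, 190.0 and 193 in Fam134bKO myoblasts and 95.8, 238, 81.9 and 95.9 in Fam134bKO myotubes. In Fam134bKO myotubes 3 samples lay far under all others and replicate 2 lay among the highest of any group. It was called lower on differentiation of Fam134bKO cells (log2 difference -0.67, SE 0.25, adjusted p = 0.047) and against WT myotubes (log2 difference -0.84, SE 0.25, adjusted p = 0.0202). Psmc2, Psmc3 and Psmc6 were called in no comparison and differed by -0.31, -0.25 and -0.27 between the genotypes in myotubes.

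The myotube and stage calls of Psmc1 and Psmc4 in Fam134bKO cells were lost in none of 27 alternatives. Psmc5 lost its stage call in 16 of 27 alternatives (highest adjusted p 0.147) and kept it, among omissions of 1 library, only without WT myotubes replicate 2, Fam134bKO myoblasts replicate 2 or Fam134bKO myotubes replicate 2. Its genotype call ended without WT myotubes replicate 2 or Fam134bKO myotubes replicate 1, 3 or 4 (highest adjusted p 0.0729). The myoblast call of Psmc4 ended without WT myoblasts replicate 1, 3 or 4 or Fam134bKO myoblasts replicate 1, 2, 3 or 4 (highest adjusted p 0.109).

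The non-ATPase subunits of the 19S cap scaffold it, bind ubiquitin chains and remove them. Of 11 tested, limma called 0 in Fam134bKO against WT myotubes (2 at an unadjusted p under 0.05), with a median log2 difference of -0.05, and it called 1 lower and 1 higher against Fam134bKO myoblasts. Psmd4, a ubiquitin receptor, had normalized counts of 252, 333, 317 and 251 in WT myoblasts, 136, 217, 208 and 129 in WT myotubes, 194, 292, 185 and 206 in Fam134bKO myoblasts and 105, 212, 236 and 194 in Fam134bKO myotubes. The WT stages did not overlap, and Psmd4 fell in WT myotubes (log2 difference -0.77, SE 0.24, adjusted p = 0.0242). In Fam134bKO cells the samples overlapped and the difference was -0.27 (SE 0.24, adjusted p = 0.399).

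Psmd8 (chr7:29174188-29180701), a subunit of the lid, had normalized counts of 917, 817, 1075 and 1096 in WT myoblasts, 739, 863, 859.7 and 798 in WT myotubes, 579, 555, 459.8 and 599 in Fam134bKO myoblasts and 555, 575, 695 and 815 in Fam134bKO myotubes. All Fam134bKO myoblast samples lay under all WT samples of either stage. Psmd8 was 0.563 times the WT level in myoblasts (log2 difference -0.83, SE 0.16, adjusted p = 0.000575), and in myotubes the genotypes differed by -0.32 (SE 0.16, adjusted p = 0.149). Psmd3, another lid subunit, had normalized counts of 547, 507, 469 and 520.5 in WT myoblasts, 694, 635, 467 and 541 in WT myotubes, 401, 894, 396 and 518 in Fam134bKO myoblasts and 951, 782, 709 and 699 in Fam134bKO myotubes. It was the 1 member called higher on differentiation of Fam134bKO cells (log2 difference 0.58, SE 0.21, adjusted p = 0.0365), although Fam134bKO myoblasts replicate 2 lay within the range of the myotubes.

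Psmd12, also of the lid, was the only member called lower in the stage comparisons of both genotypes, by limma, with nearly the same size in WT (log2 difference -0.40, SE 0.13, adjusted p = 0.0335) and Fam134bKO cells (log2 difference -0.41, SE 0.13, adjusted p = 0.0195) and no overlap between stages in either. The deubiquitinase Psmd14 and the scaffolds Psmd1 and Psmd2 were called in no comparison, with log2 differences between -0.40 and 0.39, and neither were Psmd6, Psmd7, Psmd11 and Psmd13, which lay between -0.54 and 0.40. Leaving out 1 library ended the call of Psmd4 (WT myoblasts replicate 2 or 3 or WT myotubes replicate 1 or 4, highest adjusted p 0.0902), of Psmd3 (Fam134bKO myoblasts replicate 1, 3 or 4 or Fam134bKO myotubes replicate 1 or 2, 0.137) and of Psmd12 in WT cells (WT myoblasts replicate 1, 2, 3 or 4 or WT myotubes replicate 3 or 4, 0.0824). In Fam134bKO cells the call of Psmd12 ended without Fam134bKO myoblasts replicate 1 (highest adjusted p 0.0721), and that of Psmd8 was lost in none of 27 alternatives.

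Assembly chaperones help build the core (Psmg1 to Psmg4) and the base (Psmd5, Psmd9 and Psmd10). In WT myotubes against WT myoblasts, in Fam134bKO against WT myoblasts and in Fam134bKO against WT myotubes limma called 0 of 7, with 1, 0 and 2 at an unadjusted p under 0.05. Psmg1, which pairs with Psmg2 to assemble the alpha ring, had normalized counts of 58.1, 53.04, 57.04 and 83.8 in WT myoblasts, 50.1, 28.8, 46.5 and 67.4 in WT myotubes, 53.4, 52.3, 42.5 and 61.7 in Fam134bKO myoblasts and 19.4, 42.3, 45.9 and 4 in Fam134bKO myotubes. In Fam134bKO myotubes, replicates 2 and 3 lay near the myoblasts while replicate 4, with 2 reads, was under the floor. Psmg1 was called lower on differentiation of Fam134bKO cells (log2 difference -1.31, SE 0.47, adjusted p = 0.0362), and over the alternatives the log2 difference ran from -1.69 to -0.62. Psmd9 was called lower in the same comparison (log2 difference -0.64, SE 0.24, adjusted p = 0.0481), with no overlap. The remaining chaperones, Psmg2, Psmg3, Psmg4, Psmd5 and Psmd10, were called in no comparison and lay between -0.69 and 0.56. The call of Psmg1 ended without Fam134bKO myoblasts replicate 1, 2 or 4 or Fam134bKO myotubes replicate 1 or 4 (highest adjusted p 0.126), and that of Psmd9 was lost in 17 of 27 alternatives (highest adjusted p 0.15) and kept, among omissions of 1 library, only without WT myotubes replicate 1 or 2, Fam134bKO myoblasts replicate 3 or Fam134bKO myotubes replicate 4.

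Among the 4 alternative activators and the inhibitor, all 5 log2 differences were negative in WT myotubes against WT myoblasts, and 4 of 5 were positive in Fam134bKO against WT myotubes. Psmf1 (PI31; chr2:151715812-151744186) binds the core and inhibits it in vitro. Its normalized counts were 169, 163, 201 and 182 in WT myoblasts, 91.5, 161, 112 and 103 in WT myotubes, 228, 209, 206 and 207 in Fam134bKO myoblasts and 165, 140.1, 193 and 229.8 in Fam134bKO myotubes. WT myotubes lay under WT myoblasts in every sample, and the lowest Fam134bKO myotube sample overlapped with the highest WT one. Psmf1 fell on differentiation of WT cells (log2 difference -0.64, SE 0.18, adjusted p = 0.0165) and was 1.56 times the WT level in Fam134bKO myotubes (log2 difference 0.64, SE 0.18, adjusted p = 0.0152), where it was the 1 member called higher. In Fam134bKO cells the stages differed by -0.25 (SE 0.18, adjusted p = 0.319).

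Psme1, which with Psme2 forms the interferon-inducible PA28 activator, had normalized counts of 458, 350.1, 474 and 512 in WT myoblasts, 157, 322, 380.1 and 321 in WT myotubes, 460.2, 266, 351 and 415 in Fam134bKO myoblasts and 134, 296, 201 and 268 in Fam134bKO myotubes. It fell on differentiation of Fam134bKO cells (log2 difference -0.76, SE 0.26, adjusted p = 0.0292), with samples that overlapped, and the WT difference was of similar size without being called (-0.66 (SE 0.26, adjusted p = 0.0737)). Its partner Psme2 was at 60.9, 67.5, 76.1 and 46.3 in WT myoblasts, 57.8, 72.9, 36.2 and 32.7 in WT myotubes, 50.7, 109.6, 47.7 and 62.6 in Fam134bKO myoblasts and 37.8, 49.6, 119 and 104 in Fam134bKO myotubes. No stage or genotype difference of Psme2 was called, with log2 differences from -0.38 to 0.54. The nuclear activator Psme3 was at 372, 342, 318 and 354 in WT myoblasts, 255, 405, 306 and 272 in WT myotubes, 239, 407, 234 and 246 in Fam134bKO myoblasts and 312, 314, 368 and 384 in Fam134bKO myotubes. It was called in no comparison, and Fam134bKO myoblasts replicate 2 lay above the other 3 samples of its group. The last activator, Psme4 (PA200), was at 189, 308, 182 and 152 in WT myoblasts, 166, 126, 189 and 158 in WT myotubes, 192, 164, 203 and 133 in Fam134bKO myoblasts and 144, 162, 246 and 126 in Fam134bKO myotubes. Its groups overlapped throughout, and its log2 differences lay between -0.34 and 0.05. Omitting 1 library ended the call of Psme1 (Fam134bKO myoblasts replicate 1 or 4 or Fam134bKO myotubes replicate 1 or 3, highest adjusted p 0.122) and those of Psmf1 on differentiation of WT cells (WT myoblasts replicate 3 or WT myotubes replicate 1 or 4, 0.0656) and between the genotypes (Fam134bKO myotubes replicate 4, 0.0849).

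Summed over all 45 members, proteasome transcripts took 0.944% ± 0.0219 of all normalized counts in WT myoblasts, 0.790% ± 0.0450 in WT myotubes, 0.883% ± 0.0661 in Fam134bKO myoblasts and 0.715% ± 0.0320 in Fam134bKO myotubes (SD, n = 4 each). As a share of all counts, every Fam134bKO myotube sample (0.673% to 0.741%) lay under every sample of the other groups, the nearest being WT myotubes (0.754% to 0.854%). As normalized counts the sums overlapped: Fam134bKO myotubes ranged from 17960.3 to 20995, with replicate 4 above 3 of the 4 WT myotube samples (20278 to 24790 in all) and above Fam134bKO myoblasts replicate 3 at 20804. The sums are a description and weigh each gene by its level. Fam134bKO myotubes were lowest in the ATPases, with 3606 ± 335 normalized counts against 4638 ± 118 in Fam134bKO myoblasts and 4835 ± 527 in WT myotubes. The non-ATPases did not follow, with 6253 ± 434 in Fam134bKO myotubes, 6480.3 ± 818 in Fam134bKO myoblasts and 6009 ± 466 in WT myotubes. The spread within groups was uneven: the median SD of log2 values over the tested members was 0.304 in Fam134bKO myotubes and 0.191 to 0.260 in the other groups, and 23 of 43 members had their largest SD in Fam134bKO myotubes.

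**Figure D4:**
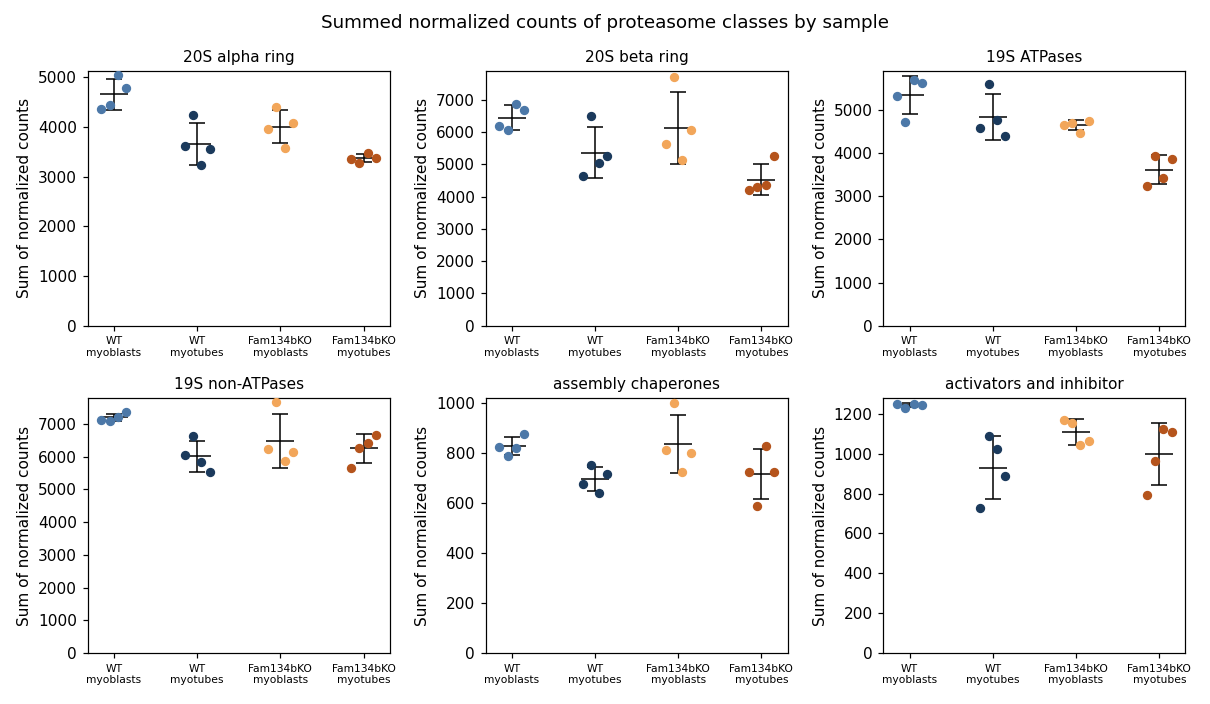
Summed normalized counts of 6 classes of members in each sample (points), with the group mean and SD (bars, n = 4). The 19S ATPases of Fam134bKO myotubes (mean 3606) lie under all other samples, while the 19S non-ATPases of the myotubes overlap between the genotypes.

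The interaction term asks whether differentiation changed a member differently in Fam134bKO and WT cells. For it, limma called 0 of 43 members (3.45% of all genes tested were called in either direction), and 7 had an unadjusted p under 0.05, as did 17.4% of all genes. The most negative values were those of Psma5, -1.33 (SE 0.47, adjusted p = 0.133), and Psmb5, -1.24 (SE 0.41, adjusted p = 0.104), followed by Psmb7 at -1.03 and Psmc5 at -0.75. The most positive were Psmd7 at 0.66, Psmd8 at 0.51 and Psma3 at 0.49. The stage calls that appear in 1 genotype and not in the other are thus not shown to differ between the genotypes. Without Fam134bKO myotubes replicate 2 the interaction called 2 members lower.

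Markers of proliferating cells also differed between the groups. Their summed normalized counts were 5474 to 6155 and 2759 to 4477 in WT myoblasts and myotubes, and 4541 to 6667 and 1116 to 1931 in Fam134bKO myoblasts and myotubes. Of 8 markers, 6 were called lower in WT myotubes and 8 in Fam134bKO myotubes against their myoblasts, and 6 were lower in Fam134bKO than in WT myotubes. In Fam134bKO against WT myoblasts limma called 0 of the 8 markers, with 1 at an unadjusted p under 0.05. All 8 were detected in every sample, and the lowest single value was 45.2, of Ccnb1 and Mki67 in Fam134bKO myotubes. Their part in the proteasome differences was not tested. Myotube markers summed to 28430.3 to 43880 in WT myotubes and 12132 to 16631 in Fam134bKO myotubes, and 6 of 11 were called lower in the latter, whose part was not tested either.

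Genes of the pathway outside the name rule were followed from a list of 34, of which 33 were tested. In WT myotubes 3 were called higher (9.09%, against 13.8% of all genes tested) and 5 lower (15.2%, against 9.16%) than in WT myoblasts. In Fam134bKO myotubes 0 were called higher (17.3% of all genes) and 9 lower (27.3%, against 16.1%) than in Fam134bKO myoblasts, with 10 at an unadjusted limma p under 0.05. In Fam134bKO against WT cells 3 were called higher in myoblasts (9.09%, against 7.26% of all genes) and 0 lower (8.5% of all genes, with 5 members of the list at an unadjusted limma p under 0.05 in either direction). In myotubes 1 was called higher (3.03%, against 9.74%) and 2 lower (6.06%, against 13.7%). Nfe2l1, the regulator described above, had normalized counts of 138, 111, 121 and 104 in WT myoblasts, 386, 267, 458 and 366 in WT myotubes, 311, 203, 275 and 254 in Fam134bKO myoblasts and 396, 458, 324 and 226 in Fam134bKO myotubes. WT myoblasts lay under every other sample. Nfe2l1 rose on differentiation of WT cells (log2 difference 1.61, SE 0.21, adjusted p = 9.74e-06) and was higher in Fam134bKO than in WT myoblasts (log2 difference 1.12, SE 0.21, adjusted p = 0.000511), while the genotypes differed by -0.09 (SE 0.21, adjusted p = 0.787) in myotubes. Its stage difference in Fam134bKO cells was 0.40 (SE 0.21, adjusted p = 0.152), and the interaction was called (log2 difference -1.22, SE 0.30, adjusted p = 0.0234). Nfe2l2, a related factor, fell on differentiation of Fam134bKO cells (log2 difference -0.71, SE 0.25, adjusted p = 0.0333), as did the segregase Vcp (log2 difference -0.46, SE 0.17, adjusted p = 0.0466), and the NF-Y subunit Nfyc fell in WT cells (log2 difference -0.72, SE 0.24, adjusted p = 0.0373). The interaction call of Nfe2l1 ended without WT myoblasts replicate 2 or 4 or WT myotubes replicate 3 or Fam134bKO myoblasts replicate 1 or 3 (highest adjusted p 0.0644).

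Among subunits outside the rule, the ubiquitin receptor Adrm1 fell on differentiation of both WT (log2 difference -1.03, SE 0.25, adjusted p = 0.00547) and Fam134bKO cells (log2 difference -0.93, SE 0.25, adjusted p = 0.00707), and Shfm1 (Sem1), a small lid subunit, fell in Fam134bKO cells (log2 difference -1.18, SE 0.30, adjusted p = 0.00469). The core assembly factor Pomp was called in no comparison. The immunoproteasome subunit Psmb8, which replaces Psmb5 after interferon, had normalized counts of 4.61, 0.964, 4 and 3.56 in WT myoblasts, 12.1, 10.8, 13.01 and 14.9 in WT myotubes, 38.5, 18.3, 39.9 and 31.7 in Fam134bKO myoblasts and 64.9, 35.02, 59.4 and 23.98 in Fam134bKO myotubes. Every Fam134bKO sample lay above every WT sample. Psmb8 was higher in Fam134bKO than in WT cells in myoblasts (log2 difference 2.995, SE 0.39, adjusted p = 6.77e-06) and in myotubes (log2 difference 1.68, SE 0.39, adjusted p = 0.00356), and higher in WT myotubes than in WT myoblasts (log2 difference 1.77, SE 0.39, adjusted p = 0.00247). WT myoblasts held 1 to 5 reads of it, so these log2 differences depend on the pseudocount, and the myoblast value ran from 2.14 to 3.30 over the alternatives. Of the other immunoproteasome subunits, Psmb10 was called in no comparison and Psmb9 had at most 2 reads in a sample.

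Of 14 genes for proteins that dock on the proteasome or carry substrates to it, 5 were called lower on differentiation of Fam134bKO cells (35.7%, against 16.1% of all genes). The shuttle factor Ubqln2 had normalized counts of 176, 165, 202 and 205 in WT myoblasts, 148, 85.5, 167 and 195 in WT myotubes, 270.4, 223, 258 and 194 in Fam134bKO myoblasts and 61.96, 71.5, 117 and 47.96 in Fam134bKO myotubes. Its Fam134bKO stages did not overlap, and it fell on differentiation of these cells (log2 difference -1.72, SE 0.25, adjusted p = 1.99e-05), was lower than in WT myotubes (log2 difference -1.002, SE 0.25, adjusted p = 0.00587) and was called for the interaction (log2 difference -1.33, SE 0.35, adjusted p = 0.0392). Without the 2 shallowest samples its genotype call in myotubes ended, and the interaction call ended in 13 of 26 alternatives, among them all omissions of 1 library other than those of WT myotubes replicate 2, Fam134bKO myoblasts replicate 2 or 4 or Fam134bKO myotubes replicate 2 or 3 (highest adjusted p 0.109). Its relative Ubqln4 was lower in Fam134bKO myotubes against both myoblasts (-0.66, adjusted p = 0.0479) and WT myotubes (-1.02, adjusted p = 0.00572). The deubiquitinase Usp14 fell in both WT (-0.49, adjusted p = 0.0264) and Fam134bKO myotubes (-0.55, adjusted p = 0.00946). So did Pithd1 (-0.73, adjusted p = 0.0172 and -0.92, adjusted p = 0.00221). A second deubiquitinase, Uchl5, fell on differentiation of Fam134bKO cells (-0.68, adjusted p = 0.0206). In WT myotubes, Rps27a, a ubiquitin fusion gene, was lower (-0.96, adjusted p = 0.0386). AI314180 (Ecpas), which binds the 26S, was higher in Fam134bKO than in WT myoblasts (0.73, adjusted p = 0.036). Outside the members, the alternatives were examined for Nfe2l1, Ubqln2 and Psmb8 only. How the calls of the other pathway genes hold up under them is not shown here.

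**Figure D5:**
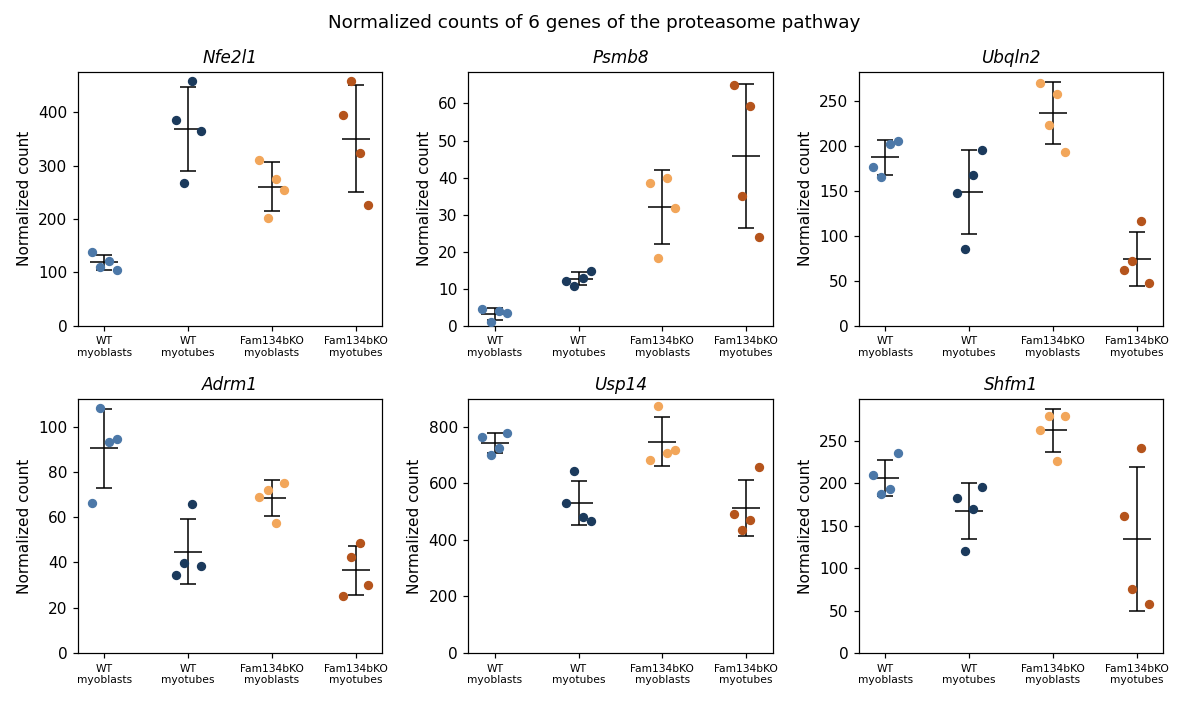
Normalized counts of 6 pathway genes outside the name rule in each sample (points), with the group mean and SD (bars, n = 4). Nfe2l1 is lowest in WT myoblasts (mean 119), and Psmb8 is higher in every Fam134bKO sample than in any WT sample.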

How the data were processed

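mRNA was measured in 16 C2C12 samples, 4 per group, with groups taken from the sample titles (a separate genotype field reads unknown). A commercial service prepared digital mRNA libraries from total RNA and sequenced them single-end. The authors used bbduk for trimming, aligned reads with STAR 2.6.0a to mm10 and counted those on genes with HTSeq. The deposited log2 values are log2(normalized count + 1), where the normalization tool, the annotation and the strand setting are not given in the sources used here. Values before the log2 step were whole multiples of 1 step per sample in 100% of cases (within 0.05 read), which gave the reads.

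Genes reaching a normalized count of 10 in 4 or more samples were tested with limma 3.58.1 (R 4.3.3; lmFit, contrasts.fit, eBayes with trend), with 4 group means over 16 samples. Log2 differences are on the log2(normalized count + 1) scale, which understates changes of low genes. The model gives each gene 1 spread for all groups. p-values measure the spread between these samples, which may in part be technical. The procedure was tested on simulated data. The design had allowed for linear values, and with log2 values no further log step was taken. Gene members and lists were chosen with earlier results of these data known. Full values are given for the 3 largest called differences each way per comparison, the catalytic subunits, the activators and the inhibitor; other members are given by difference or range, and called genes of the pathway list are named, except 1 that is not reported here. Psmc1 and Psmc5 were added for full values after their values were seen. Promoters came from RefSeq, and gene positions and shared sequence from GENCODE M21. The alternatives tried were a pseudocount of 0.5 or 5, a minimum of 50 or no filter, 3 other scalings, sample weights, only the 8 samples compared, a replicate block and each sample left out. Omitting the 2 shallowest samples and restricting to members with little shared sequence were added after the data were seen. Paaf1 was not analysed here.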

Additional observations from a re-analysis of the deposited data

Results flagged for a closer look

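In 13 of the 172 combinations of a tested member and a group, 1 sample lay far from the other 3 by Dixon's criterion, where chance alone would mark about 1 in 20, or 8.6. In Fam134bKO myoblasts replicate 2, which held 5 of them, the values were 745 for Psmc6, 197 for Psmg2, 962 for Psmd13 and 407 for Psme3, all above the rest of the group, and 545 for Psmc4, below it. Fam134bKO myoblasts replicate 1 had 228 for Psmf1, the highest of its group. Fam134bKO myotubes replicate 2 had 553 for Psma2, against 987 to 1025 in the others, and 238 for Psmc5, against 81.9 to 95.9. Psma1 was at 112 in Fam134bKO myotubes replicate 4 and Psma4 at 83.3 in replicate 1, both lowest of the group. In WT cells, Psmc4 was at 909 in WT myotubes replicate 2 (536 to 564 in the others), Psma4 at 110 in WT myotubes replicate 1, the lowest, and Psmd7 at 1216 in WT myoblasts replicate 2, the highest.

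The effect of differentiation differed between the genotypes by the interaction term of limma for Nfe2l1, -1.22 (SE 0.30, adjusted p = 0.0234), and for Ubqln2, -1.33 (SE 0.35, adjusted p = 0.0392). The stage difference of Nfe2l1 was less positive in Fam134bKO than in WT cells, and that of Ubqln2 was more negative.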

How the results depend on the processing

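No call of a member changed direction under any alternative. With sample weights, members called lower numbered 19 in WT differentiation (5 as reported), 11 in Fam134bKO against WT myoblasts (3), 13 in Fam134bKO against WT myotubes (7) and 4 for the interaction (0), and those called higher 4 in Fam134bKO differentiation (1), 3 in Fam134bKO against WT myotubes (1) and 3 for the interaction (0). Over all genes the share called lower with weights was 20.6% in WT differentiation and 18.7% in Fam134bKO against WT myoblasts (9.16% and 8.5% as reported). It was 14.5% in Fam134bKO against WT myotubes and 5.60% for the interaction (13.7% and 1.48% as reported). Of all 10767 genes, 2017 were called higher in Fam134bKO differentiation (1860 as reported), 1102 in Fam134bKO against WT myotubes (1049) and 618 for the interaction (212). With only the 8 samples compared, the counts of members lower were 10 in WT differentiation, 7 in Fam134bKO differentiation (13), 5 in Fam134bKO against WT myoblasts and 4 in Fam134bKO against WT myotubes. Over all genes the shares called lower were 13.6%, 11.7%, 13.1% and 8.37% in the same order. The counts of members higher were 0 in Fam134bKO differentiation and 0 in Fam134bKO against WT myotubes, where 1495 and 664 of all 10767 genes were higher. The count higher in Fam134bKO differentiation was also 0 with no filter and with total scaling. Of all 10767 genes, 1674 were called higher there with total scaling, and the number with no filter is not given here. Without the 2 shallowest samples 8 were lower in WT differentiation and 1 for the interaction. The shares of all genes called without these samples are not given here, so these counts cannot be set against them. With only the 31 members of little shared sequence, 7 were lower in Fam134bKO differentiation and 4 in Fam134bKO against WT myotubes, since Psma5, Psmb5, Psmb6, Psmc1, Psmd9 and Psme1, called in the former, were among those left out. Over all genes tested, not restricted by shared sequence, the shares called lower were 16.1% and 13.7%.

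Over the 16 omissions of 1 sample, the counts lower ranged from 1 to 10 in WT differentiation, from 5 to 15 in Fam134bKO differentiation, from 2 to 4 in Fam134bKO against WT myoblasts, from 5 to 10 in Fam134bKO against WT myotubes and from 0 to 2 for the interaction. The counts higher ranged from 0 to 0 in WT differentiation and in Fam134bKO against WT myoblasts, from 0 to 3 in Fam134bKO differentiation, from 0 to 2 in Fam134bKO against WT myotubes and from 0 to 0 for the interaction. The cause of these changes was not tested, other than where fewer samples entered or named members were left out. Shares of all genes called under the omissions of 1 sample are not given here, so these counts cannot be set against them.

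Samples with the same replicate number had a mean correlation of deviations of 0.0330 over 24 pairs (from -0.223 to 0.369), so the numbers were not taken as pairs. With a replicate block, 6 members were lower in WT differentiation, 11 lower and 1 higher in Fam134bKO differentiation, 2 lower in Fam134bKO against WT myoblasts and 7 lower and 1 higher in Fam134bKO against WT myotubes, and 0 for the interaction. Over all genes the shares called lower with the block were 9.28%, 16.3%, 8.43% and 13.6% for the 4 comparisons in this order. Of all 10767 genes, 1874 were called higher in Fam134bKO differentiation and 1047 in Fam134bKO against WT myotubes. The block ended the calls of Psmc5, Psmd9 and Psmg1 in Fam134bKO differentiation and of Psmc4 in Fam134bKO against WT myoblasts. Depth limits the low values most: Psma5, Psmb5 and Psmg1 rest on 9, 12 and 2 reads in Fam134bKO myotubes replicate 4.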
